A study of Rattus norvegicus with 10 samples.

Results

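The BCL2 family regulators of apoptosis were followed in sorted rat β-cells in which the transcriptional repressor Scrt1 had been silenced. The 10 genes were chosen by name: the anti-death members Bcl2, Bcl2l1, Bcl2l2 and Mcl1, the pro-death effectors Bax and Bak1, and the BH3-only members Bad, Bid, Bbc3 and Bcl2l11. Of these 10, 8 had values in the deposited table, which held 23918 genes in all, and all 8 were among the 12941 genes tested. Mcl1 and Bbc3 were not analysed here. The rule that chose the 10 genes names them and uses no measured value, but they were chosen with earlier results of these data known. The study compared 5 libraries transfected with a control siRNA (siCtrl, replicates 1 to 5) with 5 libraries transfected with siRNAs against Scrt1 (siScrt1, replicates A to E). All 10 libraries came from β-cells of adult Sprague-Dawley rats, enriched from dispersed islets by FACS on their autofluorescence and seeded on extracellular matrix left by a rat bladder cancer line. After lipid transfection (Lipofectamine RNAiMAX) with 4 pooled siRNAs to Scrt1 in one group and a negative control siRNA in the other, RNA was taken at 48 h, so all cells had been dissociated, sorted and transfected. The labels do not say whether the 5 libraries of a group came from separate animals, and p-values therefore measure the spread between libraries.

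The BCL2 family decides whether the outer membrane of the mitochondrion stays closed. Bax and Bak1, once active, assemble into pores through which cytochrome c escapes to start the caspase cascade. Bcl2, Bcl2l1 (BCL-XL), Bcl2l2 (BCL-W) and Mcl1 hold the effectors and their activators in check, and the BH3-only proteins Bad, Bid, Bcl2l11 (BIM) and Bbc3 (PUMA) carry the death signal to them. In β-cells this route is known for cell loss under cytokines, high glucose and endoplasmic reticulum stress. Much of its control acts on the proteins, through phosphorylation, cleavage and turnover, and RNA-seq measures only the transcripts.

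Scrt1 was lowered in the siScrt1 libraries. It was measured at 14.6, 11.7, 14.0, 18.2 and 11.9 CPM (the reads of a gene relative to all reads of its library) in siCtrl replicates 1 to 5 and at 5.55, 4.24, 4.28, 2.24 and 1.57 CPM in siScrt1 replicates A to E. The groups did not overlap, and the mean was 74.6% lower (p = 0.00794 by a two-sided exact permutation test, the lowest that 5 against 5 can give). The fitted change was -2.06 on the log2 scale (limma adjusted p = 0.00618). In the same fit 136 of the 12941 genes passed an adjusted p under 0.05, or 1.05% of those tested, and 88 of them, 0.68% of those tested, were lowered.

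Libraries held 11901342 to 17444034 reads and did not differ in depth between groups by an exact permutation test (p = 0.635). Ins1, Ins2 and the other β-cell markers measured summed to between 102492 and 165615 CPM. The 7 acinar markers summed to at most 0.729 CPM, the 3 endothelial markers measured to at most 1.32 CPM and the 5 immune markers, with Cd3e at 0, to at most 3.67 CPM. The 4 α-cell markers summed to between 207 and 580 CPM, nearly all of it Gcg, and the 3 markers of δ- and PP-cells to between 16.5 and 82.2 CPM. The 5 duct markers summed to between 188 and 267 CPM, of which Krt7 alone gave 184 to 260 CPM, while Krt19, Sox9, Spp1 and Cftr were each at 4.36 CPM or less in every library. Of the 40 markers with values, 17 were above the filter on low values, none of them acinar or endothelial. By limma 0 of these 17 passed the test between groups. An unadjusted p under 0.05 was found for 3 of the 17, all 3 among the 7 β-cell markers, beside 11.1% of all genes tested. The 6 mesenchymal markers summed to 3.71 to 8.68 CPM in 8 libraries, and to more in siCtrl replicate 4 (16.8 CPM) and siScrt1 replicate D (30.6 CPM). Since these are bulk libraries, a difference in the number of cells of a type and one in RNA per cell, in either direction, cannot be told apart.

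Scratch proteins such as Scrt1 bind the E-box CAGGTG, so the start regions of the members were searched for these letters on both strands (the reverse strand reads CACCTG). RefSeq promoter windows on the rat build GRCr8, from 250 bases before to 50 bases after each annotated start, were at hand for 8 of the 10 members, in 11 windows. Bax and Bbc3 had none. The letters stood in a window of Bcl2 and in 1 window of Bcl2l1, both anti-death members. They are shown here, with 12 bases on each side, because they are the only places where the E-box of the silenced repressor occurs in the members' windows. The strings run 5′ to 3′ in the direction of the gene and the capitals mark the E-box.

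Bcl2, chr13:23366978-23367007, minus strand: taaaggaaaacaCACCTGattttaactgct

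Bcl2l1, chr3:161763550-161763579, minus strand: ttccgggggctgCACCTGctctctgtcgcc

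The first base of the E-box lay at position -95 from the annotated start in Bcl2. In Bcl2l1, which has several annotated starts, it lay at position -182 from the start of window 4. The other Bcl2l1 windows lacked the letters. Which Bcl2l1 transcript begins at that start was not examined. Over all genes with a window, 20.1% of 27457 held the same letters in at least 1 window, so a count of 2 in 8 is near that background. The longer form CAACAGGTG, which contains the E-box, was in no window of a member and in 0.233% of all genes. A match of letters is a description of the sequence and not a measured binding site. The fitted changes of Bcl2 and Bcl2l1 were both above 0 and neither passed the test, as described with the anti-death members. Among measured members whose windows lacked the letters, Bak1 and Bcl2l11 were above 0 and Bcl2l2, Bad and Bid below. Whether a change goes with the letters was not tested.

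In control β-cells the most abundant of the measured members per length were one effector and one anti-death gene. The levels of Mcl1 and Bbc3 are not known here. Levels are given as TPM, the measure per transcript length, as scaled between libraries by the authors. Bax stood at 33.9 ± 2.14 TPM (SD, n = 5) and Bcl2l2 at 33.3 ± 1.98 TPM. Their ranges overlapped, and Bax was the higher of these in 3 of 5 siCtrl libraries, so their order could not be told from the spread. Bcl2l1 followed at 14.9 ± 1.90 TPM, below Bcl2l2 and above Bad in all 5 siCtrl libraries.

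Bad at 9.32 ± 1.97 TPM, Bak1 at 8.27 ± 1.31 TPM and Bcl2l11 at 6.71 ± 0.741 TPM (n = 5 each) lay close together. The ranges of Bad and Bak1 overlapped, as did those of Bak1 and Bcl2l11. In the siScrt1 libraries Bak1 was above Bad in 4 of 5, since Bad exceeded Bak1 in only 1, whereas Bad was the higher in 3 of 5 siCtrl libraries. These Bak1 levels include a 389 nt transcript of few reads. Without it Bak1 was at 6.60 ± 0.851 TPM in siCtrl, under Bad in every siCtrl library. That mean also lay just under the one of Bcl2l11, so the place of Bak1 between Bad and Bcl2l11 depends on those reads. Bcl2, the founding member of the family, was at 1.94 ± 0.405 TPM and Bid at 0.677 ± 0.160 TPM, each below the gene before it in all 10 libraries. Among all genes tested, the siCtrl means of Bax and Bcl2l2 fell at the percentiles 82.5 and 82.2, Bcl2l1 at 62.2, Bcl2 at 18.1 and Bid at 7.59.

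**Figure D1:**
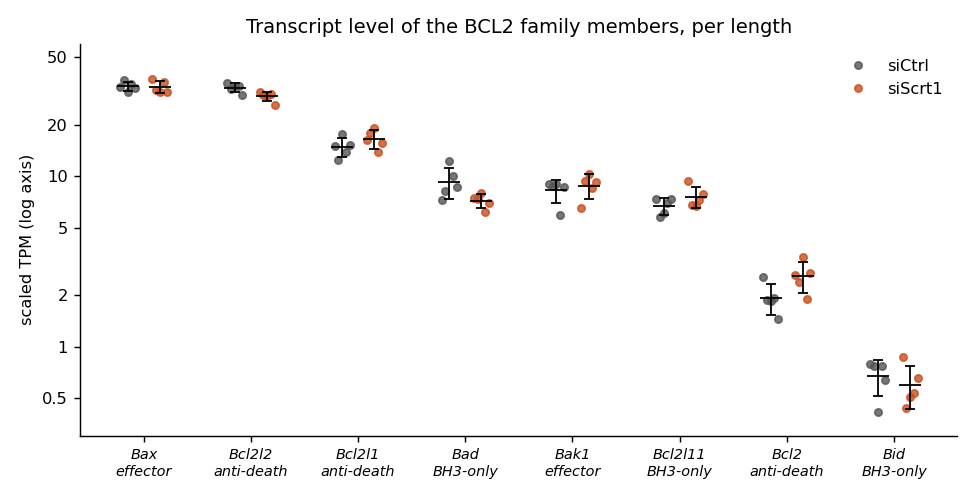
Scaled TPM (log axis) of the 8 measured members in each library, ordered by the siCtrl mean, with the role under each name; points are libraries, bars the mean and SD of 5 libraries. Bax and Bcl2l2 sit together at about 33 TPM in siCtrl, Bad, Bak1 and Bcl2l11 overlap, and Bid is lowest, under 1 TPM in every library.

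No member of the family passed the test after Scrt1 silencing. At an adjusted p under 0.05, limma called 0 of 8 members, beside 1.05% of all genes tested. At an unadjusted p under 0.05 the count was 3 of 8, or 37.5%, beside 11.1% of all genes tested: Bcl2l2 and Bad, with fitted changes below 0, and Bcl2l11, with one above 0. This set changed with the unit and with single libraries. On log2(TPM + 1) it was Bad, Bcl2 and Bcl2l2, and without siScrt1 replicate E it was Bcl2l2 alone. The CPM of the groups overlapped for all 8, so 0 of 8 were separated between groups, beside 2.96% of all genes. The median log2 change over the 8 members was 0.06, with 4 above and 4 below 0, and over all genes tested it was 0.0035. The median size of the change, regardless of sign, was 0.18 for the members and 0.11 for all genes. The 95% intervals of the 8 fold changes ran from a lower bound of 0.592, for Bid, to an upper bound of 1.79, for Bcl2, and are given with each member.

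Bcl2l2, the measured anti-death member with by far the most reads, had the smallest unadjusted p of the 8. It was measured at 128.5, 132.0, 120.8, 131.3 and 116.2 CPM in siCtrl replicates 1 to 5 and at 110.6, 109.4, 107.6, 119.2 and 97.1 CPM in siScrt1 replicates A to E. In 4 of 5 siScrt1 libraries the level was below every siCtrl library, and replicate D fell within the siCtrl range. The fitted change was -11.5% (log2 -0.18, SE 0.064, 95% interval -19.6% to -2.61%). The limma adjusted p was 0.293, and 0.122 with the replicate number of the table as a block, the lowest of any alternative tried.

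Bcl2l1 makes BCL-XL, which guards the mitochondria of many long-lived cells. Its values were 35.4, 32.9, 41.0, 35.4 and 38.5 CPM in siCtrl and 38.1, 43.0, 45.5, 35.6 and 37.6 CPM in siScrt1. Only replicates B and C of siScrt1 exceeded the siCtrl range. In the fit its change was 11.5% (log2 0.16, SE 0.106, 95% interval -4.87% to 30.7%, limma adjusted p = 0.624).

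Bcl2 was read thinly, with 21.6 to 49.3 reads in a library. It was at 2.73, 2.24, 1.96, 2.21 and 1.65 CPM in siCtrl and at 2.76, 2.58, 3.58, 2.19 and 2.93 CPM in siScrt1. Replicates A, C and E of siScrt1 were above every siCtrl library, A by a small margin, and replicates B and D were within the siCtrl range. The fitted change was the largest upward one of the members, 32.7% (log2 0.41, SE 0.201), with a 95% interval from -1.79% to 79.3% and a limma adjusted p of 0.483.

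The effector Bax, which moves from the cytosol into the mitochondrial membrane when activated, was measured at 25.0, 30.3, 22.7, 27.8 and 26.0 CPM in siCtrl and at 26.9, 23.6, 22.8, 28.4 and 23.2 CPM in siScrt1. Every siScrt1 library lay within the siCtrl range. Its fitted change, -2.86%, was the smallest of the 8 members (log2 -0.04, SE 0.078, 95% interval -13.6% to 9.26%, limma adjusted p = 0.890).

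Bak1, the effector that resides in the mitochondrial membrane, was at 12.4, 14.7, 12.3, 11.5 and 16.0 CPM in siCtrl and at 11.3, 16.9, 17.1, 14.3 and 14.9 CPM in siScrt1. Replicates B and C of siScrt1 lay above and replicate A below the siCtrl range. For Bak1 the fit gave 13.4% (log2 0.18, SE 0.127, 95% interval -6.25% to 37.1%, limma adjusted p = 0.637).

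The BH3-only member Bad, which binds anti-death proteins and is kept inactive by Akt phosphorylation, was at 6.35, 7.94, 10.6, 9.46 and 8.10 CPM in siCtrl and at 6.39, 6.48, 6.97, 5.87 and 6.20 CPM in siScrt1. The siScrt1 libraries lay close together (SD 0.401 CPM) and all under the siCtrl mean of 8.49 CPM, whereas the siCtrl libraries were spread (SD 1.61 CPM) and replicate 1 stood among the siScrt1 values. For Bad the fit gave -21.9% (log2 -0.36, SE 0.145, 95% interval -37.1% to -2.97%, limma adjusted p = 0.368). The Bad reads were whole numbers in all 10 libraries, from 76 to 174.

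Bcl2l11 makes BIM, an activator of Bax and Bak1. It was at 34.5, 31.2, 29.9, 35.9 and 37.7 CPM in siCtrl and at 39.2, 34.6, 35.6, 38.9 and 40.0 CPM in siScrt1. Replicates A, D and E of siScrt1 exceeded the siCtrl range, and replicates B and C fell inside it. For Bcl2l11 the fit gave 14.1% (log2 0.19, SE 0.079, 95% interval 1.36% to 28.5%, limma adjusted p = 0.379).

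Bid, which caspase cleavage turns into an activator of the effectors, was the least abundant measured member, at 13.0 to 23.9 reads in a library. It was at 1.54, 1.68, 0.789, 1.62 and 1.33 CPM in siCtrl and at 1.66, 0.860, 0.991, 1.13 and 1.29 CPM in siScrt1. All siScrt1 libraries were within the siCtrl range, which siCtrl replicate 3 sets at its lower end. The fitted change was -11.6% (log2 -0.18, SE 0.267, limma adjusted p = 0.853), and its 95% interval, from -40.8% to 32.0%, was the widest on the log2 scale.

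**Figure D2:**
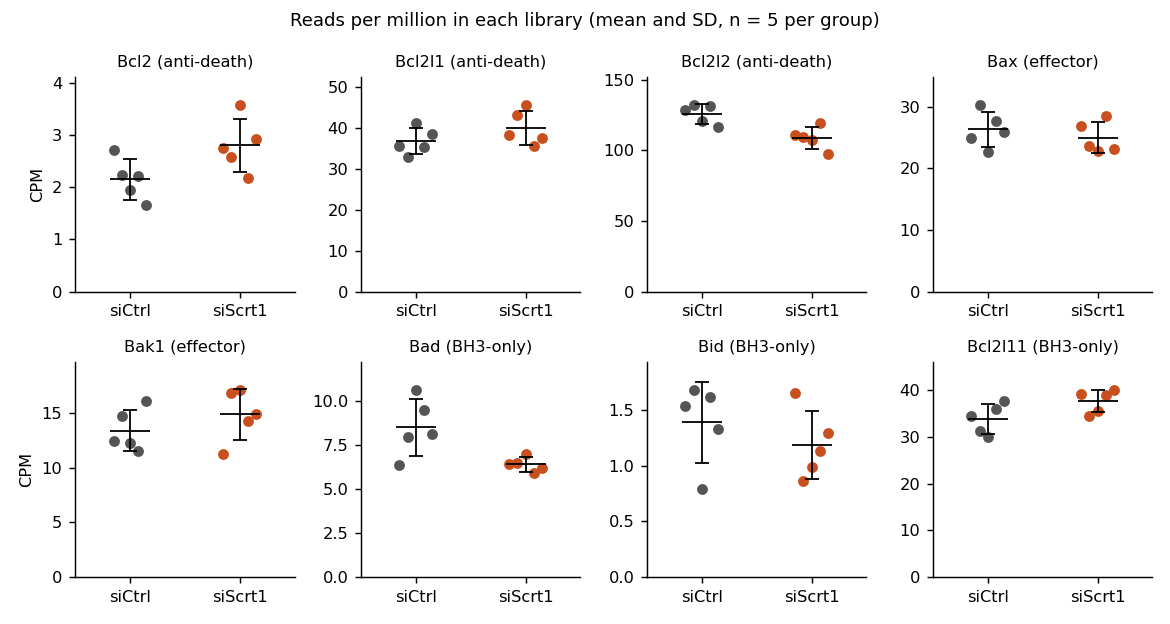
CPM of each measured member by library; points are libraries in the order siCtrl 1 to 5 and siScrt1 A to E, bars the mean and SD of 5 libraries, and each vertical axis starts at 0 with its own scale. The groups overlap in all 8 panels; 4 siScrt1 libraries of Bcl2l2 lie below all siCtrl libraries, and Bad is tight in siScrt1 and spread in siCtrl.

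The replicates differed in how steady each member was. The coefficient of variation of CPM within a group ran from 5.53%, for Bcl2l2 in siCtrl, to 26.0%, for Bid in siScrt1. Between libraries of the same number in the deposited table, Bcl2l2 was lower in siScrt1 in 5 of 5 and Bad in 4 of 5, Bcl2l11 was higher in 5 of 5 and Bcl2 and Bcl2l1 each in 4 of 5, and Bax, Bak1 and Bid went one way in 3 of 5 and the other in 2. No share over all genes was computed for these pair counts. With this number as a block, limma called 0 of 8 members, beside 259 of the 12941 genes tested. At an unadjusted p under 0.05 the block fit gave 3 of 8, and its share over all genes was not computed.

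Summed by role, the family levels in the groups lay within a few TPM of each other. The 3 anti-death members measured summed to 50.1 ± 3.13 TPM in siCtrl and to 48.8 ± 3.20 TPM in siScrt1 (SD, n = 5 each). The effector sum was 42.2 ± 2.09 TPM in siCtrl and 42.3 ± 1.55 TPM in siScrt1. The 3 BH3-only members measured summed to 16.7 ± 1.70 TPM in siCtrl and to 15.4 ± 1.42 TPM in siScrt1. The ratio of the effector sum to the anti-death sum was 0.846 ± 0.083 in siCtrl and 0.870 ± 0.065 in siScrt1, and the ratio of Bax to Bcl2l1 was 2.32 ± 0.438 and 2.04 ± 0.380. These sums leave out Mcl1 and Bbc3, they are descriptions of transcripts, and no test was run on them.

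Bcl2l2 made up most of the sum of the measured anti-death members, which leaves out Mcl1, in every library. It supplied 63.5 to 69.5% of it in the siCtrl libraries and 56.8 to 65.8% in the siScrt1 libraries, with means of 66.5% and 60.6%. Bcl2l1 supplied 29.7% ± 2.94 in siCtrl and 34.1% ± 2.69 in siScrt1, and Bcl2 supplied 3.86% ± 0.659 and 5.31% ± 0.933. For each of these shares the ranges of the groups overlapped. Bax supplied 80.4% ± 3.08 of the effector sum in siCtrl and 79.0% ± 3.95 in siScrt1.

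**Figure D3:**
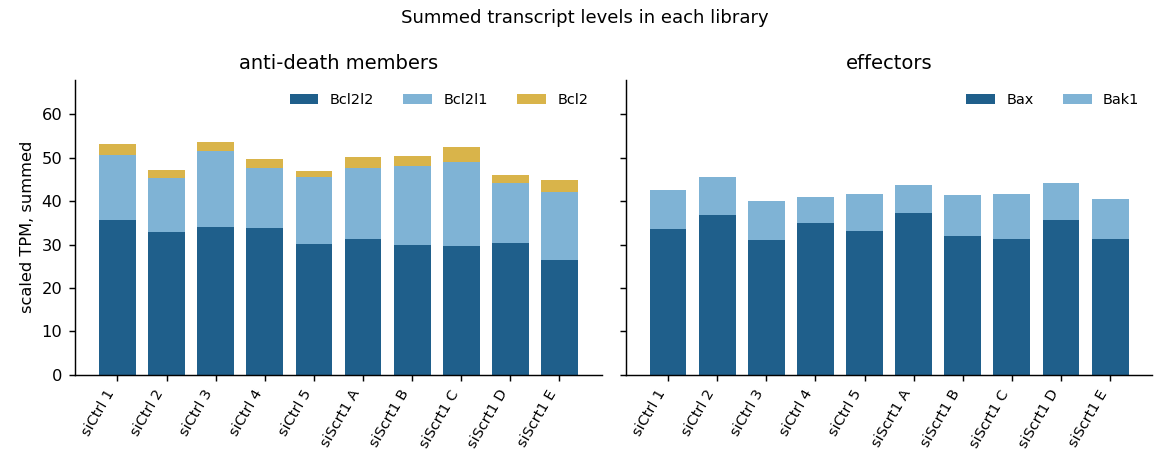
Scaled TPM summed over the measured anti-death members (left) and over the effectors (right) in each library, stacked by gene. The anti-death sums lie between 44.8 and 53.5 TPM and the effector sums between 40.1 and 45.6 TPM, and the Bcl2l2 block of siScrt1 B, C and E is lower than in any siCtrl library.

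The 8 members were assembled from 15 transcripts, of which 12 had enough reads to be tested. None of the 12 had an adjusted p under 0.05 by limma, beside 0.415% of all 17578 transcripts tested, and 3 had an unadjusted p under 0.05, beside 9.32% of all. These 3 were the only transcripts of Bcl2l2 and of Bad and the main transcript of Bcl2l11. Bcl2l2, Bad and Bid each had a single transcript in the table, so their gene and transcript values are the same reads.

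Bax was the member with the most even use of transcripts. A transcript of 831 nt carried 80.7% of its reads in siCtrl and 83.5% in siScrt1, and one of 1196 nt carried the rest. The share of the 1196 nt transcript was 18.0 to 21.7% in siCtrl and 15.2 to 18.3% in siScrt1, so the groups overlapped narrowly. Its fitted change was -0.27 on the log2 scale (limma adjusted p = 0.612) and that of the 831 nt transcript 0.01 (adjusted p = 0.985), and the difference between them was not tested.

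Bcl2l1 came almost wholly from a 2368 nt transcript, with 95.1% of reads in siCtrl and 95.3% in siScrt1, and a 2375 nt transcript held the remainder. A further pair of Bcl2l1 transcripts, of 2203 and 1744 nt, was listed at 0 in every library. Bcl2l11 came from a 5091 nt transcript with 98.5% of reads in siCtrl and 98.6% in siScrt1, whose fitted change was 0.19 (limma adjusted p = 0.460). A Bcl2 transcript of 1024 nt had reads in 3 of 10 libraries, 4.01 in total. A Bak1 transcript of 389 nt had 1.00 to 8.89 reads in a library yet, being short, contributed 1.68 ± 1.12 TPM in siCtrl and 1.22 ± 0.624 TPM in siScrt1 (SD, n = 5 each). Without it Bak1 stood at 6.60 ± 0.851 TPM in siCtrl and at 7.62 ± 1.25 TPM in siScrt1. The kallisto counts share reads between overlapping transcripts, so these splits are estimates.

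Around the members, 78 genes of the pathway were listed by role, 74 had values and 66 were tested. Of the 66, 4 fell and 0 rose at an adjusted p under 0.05, or 6.06%, beside 1.05% of all genes tested. Akt1, Ppp3r1 and Ywhag were known from earlier results of these data to be low when the lists were drawn, and the study itself points to Ppp3r1 and Ywhag in the same samples, so this count is no independent evidence of a direction. The median change of the 66 was -0.00012 on the log2 scale, with 33 above and 33 below 0. With the replicate block 6 of the 66 fell, while that fit called 259 of all 12941 genes in either direction. Ywhag, a 14-3-3 protein, was among the 6 (limma adjusted p = 0.00906).

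Of the 16 genes that control member proteins by phosphorylation or turnover, 3 fell. Akt1, the kinase that phosphorylates Bad, was at 132, 127, 165, 169 and 163 CPM in siCtrl and at 83.8, 88.9, 92.3, 71.3 and 62.3 CPM in siScrt1, with no overlap between groups. Its fitted change was -0.90 on the log2 scale (SE 0.132, limma adjusted p = 0.00568). Ppp3r1, the regulatory subunit of calcineurin, a phosphatase that can dephosphorylate Bad, was at 196 ± 21.1 CPM in siCtrl and at 144 ± 6.36 CPM in siScrt1 (SD, n = 5 each, log2 -0.40, limma adjusted p = 0.00752). Ywhaz, a 14-3-3 protein that can hold phosphorylated Bad in the cytosol, was at 410 ± 35.8 CPM in siCtrl and at 327 ± 21.5 CPM in siScrt1 (log2 -0.29, limma adjusted p = 0.0440), a call made in 7 of the 20 alternative settings, over which its adjusted p ran from 0.0351 to 0.129. The related 14-3-3 gene Ywhag had a fitted change of -0.55 and missed the threshold (adjusted p = 0.0565). Bad itself, whose protein is the substrate or partner of these 4, did not pass the test.

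Among the 9 tested genes of the other BCL2-like and BH3-only group, Bnip3l, a mitophagy receptor with a BH3-like stretch, fell from 119 ± 12.6 CPM in siCtrl to 91.1 ± 7.25 CPM in siScrt1 (SD, n = 5 each). Its change was -0.35 on the log2 scale (SE 0.073, limma adjusted p = 0.0415), and the call was made in 8 of the 20 alternative settings (adjusted p from 0.0109 to 0.131). The median change of this group was -0.01, with 4 above and 5 below 0. Bcl2a1, Bcl2l10, Bik, Pmaip1 and Bcl2l15 were under the filter on low values, and Bcl2a1d and Hrk were not analysed here.

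In the remaining 5 lists no gene passed the limma test. In the order given here 2, 2, 0, 1 and 1 genes had an unadjusted p under 0.05. These were 16.7, 33.3, 0, 14.3 and 9.09% of the tested genes of each list, beside 11.1% of all genes tested. With so few genes in a list, 1 gene moves these shares widely. The 12 genes of mitochondrial release and the apoptosome had a median change of -0.02, and the smallest p was that of Mtch2, the outer membrane partner of cleaved Bid (log2 -0.22, limma adjusted p = 0.181). The 6 tested caspases had a median of -0.22, with 2 above and 4 below 0. The 5 tested inhibitors of apoptosis had a median of 0.01, and Cflar, which blocks caspase-8 activation, had a change of -0.08 (adjusted p = 0.755). The 7 tested genes of the death receptor pathway had a median of 0.01, and Ripk1, a kinase of the receptor complex, had a change of -0.17 (adjusted p = 0.358). The 11 genes of transcriptional control of BH3-only genes had a median of 0.09, and Foxo3, a transcription factor known to induce Bcl2l11, had a change of 0.27 (adjusted p = 0.379). Casp1, Casp12 and Birc5 were under the filter, and Naip6 and Tnfrsf10b were not analysed here.

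**Figure D4:**
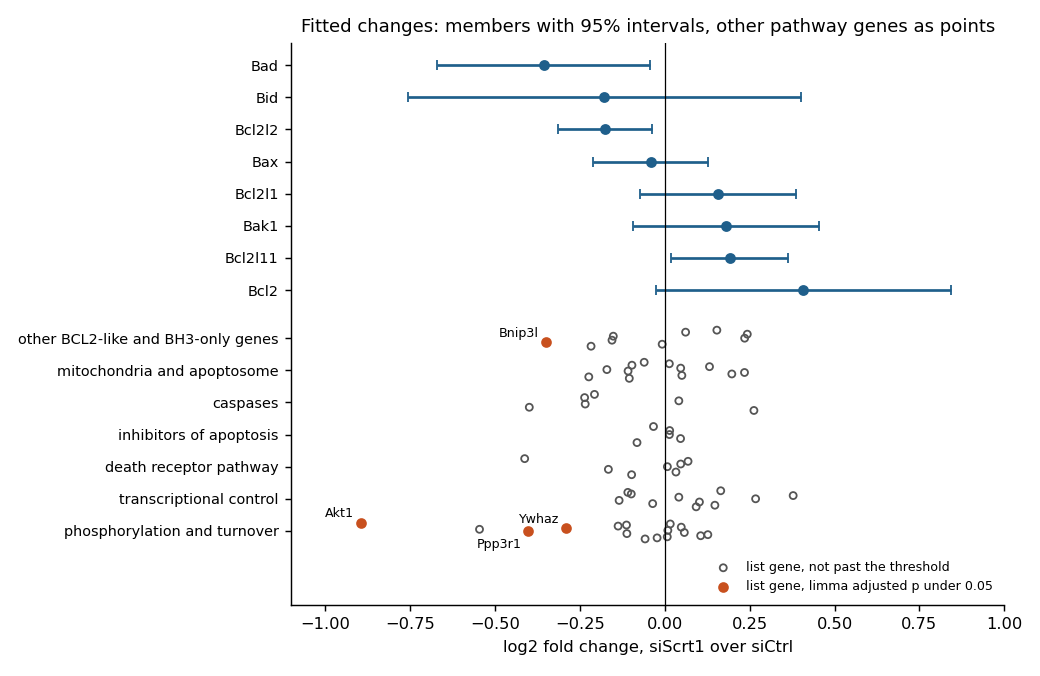
Fitted log2 fold changes, siScrt1 over siCtrl, of the 8 members with 95% intervals (top) and of the 66 tested pathway genes by list (bottom; vertical offsets within a list only separate points). The interval of 3 members excludes 0 before adjustment, none of the 8 passed the adjusted threshold, and the 4 filled points are Akt1, Ppp3r1, Ywhaz and Bnip3l.

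For Bcl2l2, the member with the smallest p, the genes whose log2 CPM followed it most closely over the 10 libraries were Pigw, of glycosylphosphatidylinositol anchor synthesis, with a Pearson r of 0.985, Uap1, which makes UDP-N-acetylglucosamine, with 0.953, and Akap1, a mitochondrial anchor of protein kinase A, with 0.949. The Spearman rho was 0.988, 0.927 and 0.903. Without siScrt1 replicate E and siCtrl replicate 2, whose Bcl2l2 levels were farthest from the median, r was 0.973, 0.955 and 0.885. These are the highest of 12941 genes in the same 10 libraries, which fall into 2 groups and share the depth and scaling of each library, and they are given as a description. Of the 3 genes only Uap1 was itself called between groups (log2 -0.50, limma adjusted p = 0.0134).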

How the data were processed

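RNA of 10 libraries of FACS-sorted rat β-cells was sequenced as single-end reads, and the authors trimmed them with Trimmomatic, checked them with FastQC, aligned them to the Rnor6 transcriptome with kallisto and scaled them with sleuth (versions not given in the sources used here). The deposited estimated counts and TPM are thus a scaled signal per transcript, not raw counts, and 9363 rows without values were left out. Groups came from the labels.

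The scaled counts of all transcripts of an Ensembl gene were added up, transformed as log2(value + 0.5) and fitted with limma 3.58.1 in R 4.3.3 (trend, group as the only term, Benjamini-Hochberg adjustment), which understates changes of low genes. Genes needed the CPM of 10 reads in a median library in 5 libraries and 15 reads in total, and transcripts 5 reads in 47% of libraries. Reads were recovered by dividing by the step of low values in each library (0.842 to 1.26 scaled counts per read). Between 75.9 and 76.6% of gene values came out whole within 0.01, too few for a count test. CPM are these reads relative to the library total. The code was tested on simulated whole counts with changes larger than any fitted for a member. That test cannot show whether changes of the members' size would be found.

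The members and the lists were chosen with earlier results of these data known. The text names Scrt1, all members, pathway genes past the threshold or, in lists without one, that with the smallest p, and the 3 genes most correlated with the member of smallest p. Ywhag, known from those results, is named outside this rule, and 1 gene that the rule names is not reported here.

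In every pair of libraries with the same number in the deposited table, deviations from the group means were positively correlated (0.131 to 0.351). Pairs of different number reached 0.167, above the lowest same-numbered value. The labels do not say what a number shares, so a fit with this number as a block was run as an alternative. The main fit and the permutation tests did not use the number. Other alternatives changed the scaling, filter, pseudocount, unit, test and libraries.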

Additional observations from a re-analysis of the deposited data

Results flagged for a closer look

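In 2 of the 78 groups of 5 libraries examined, 1 library stood apart from the other 4 by Dixon's criterion, where chance alone gives about 4. Both concern the summed mesenchymal markers. In siCtrl, replicate 4 had 16.8 CPM while its 4 companions ran from 3.71 to 6.86 CPM. In siScrt1, replicate D had 30.6 CPM and its companions from 4.72 to 8.68 CPM. These libraries share a number in the deposited table. The members called remained 0 of 8 without either library, and in CPM no member had a library that stood apart. In TPM, Bak1 stood at 5.94 in siCtrl replicate 4, while the other siCtrl libraries ran from 8.62 to 9.03. This gap came largely with the short Bak1 transcript of few reads. It gave 0.304 TPM in replicate 4 and 0.695 to 2.75 TPM in the other siCtrl libraries. The long Bak1 transcript gave 5.64 TPM in replicate 4 and 6.28 to 7.92 TPM in the others.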

How the results depend on the processing

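Under 20 alternatives 0 members and 0 member transcripts were called, no result changed sign, and Scrt1 was called in all 20 (log2 -2.26 to -1.59). The lowest adjusted p of any member was 0.122, for Bcl2l2 with the replicate block, which raised the genes called from 136 to 259 and changed no call of a member. Leaving out 1 library gave 62 to 133 genes, with 82 and 77 without siCtrl replicates 4 and 5 and 83, 87, 62 and 64 without siScrt1 replicates B, C, D and E, where fewer libraries were fitted. The pathway genes called went from 4 to 2, Akt1 and Ppp3r1, with upper quartile scaling, no filter, log2(TPM + 1) and log2(TPM + 0.1), and to between 2 and 4 with 1 library left out, the value being 2 for siCtrl replicates 2, 4 and 5 and for siScrt1 replicates B, D and E. Akt1 and Ppp3r1 were called in 20 of 20 alternatives, Bnip3l in 8 and Ywhaz in 7, and the cause was not tested. The median change of the members was 0.16 with a 10 times stricter filter, under which 5 members were tested (Bcl2, Bad and Bid were not). Bcl2 and Bid, with under 50 and 24 reads in a library, had the widest intervals. DESeq2 was not run, since recovered reads were not whole for nearly all genes.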
